A study of Mus musculus with 54 samples.

Results

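The genes described here are 10 subunits of voltage-gated calcium channels: the alpha2delta subunits Cacna2d1, Cacna2d2 and Cacna2d3, the alpha1 pore subunits Cacna1a, Cacna1b, Cacna1c and Cacna1h, and the beta subunits Cacnb1, Cacnb3 and Cacnb4. They were taken by symbol from the 35976 gene rows of a count table because calcium channel subunits have been named as targets of the miR-183/96/182 cluster (miR-183C) in pain, and all 10 were found. RNA was measured with 3′ tag sequencing in the trigeminal ganglion (TG), which holds the cell bodies of the corneal sensory nerves, and in corneas, all from male mice of 8 to 12 weeks of mixed 129S and C57BL/6 descent. Mice lacking miR-183C in sensory neurons (SNS-CKO) carried 1 copy of Nav1.8-Cre and a floxed cluster on both chromosomes (miR-183C f/f), with the reporters R26 LSL-RFP(+/+) and Csf1r-EGFP(+/+). Their controls (SNS-WT) had the same Cre and reporters with an intact cluster, miR-183C+/+. Mice lacking it in myeloid cells (MS-CKO) carried LysM-Cre(+/−) on the same floxed cluster, and their controls (MS-WT) had that floxed cluster without Cre, LysM-Cre(−/−), so that the control clusters of the strains differ. Csf1r-EGFP(+/+), which labels mononuclear phagocytes, was in all 4 groups. Each tissue had 3 SNS-CKO, 4 SNS-WT, 5 MS-CKO and 5 MS-WT libraries, so that 17 libraries stood for each tissue. Nav1.8-Cre acts in most nociceptors and in few large sensory neurons, whereas LysM-Cre acts in myeloid cells and disrupts the Lyz2 gene into which it was inserted. Sorted Csf1r-EGFP+ corneal resident myeloid cells (CRMCs) and spleen myeloid cells (MCs) were each read as 1 pool a group. The groups were conventional knockout (KO) mice, WT mice of the KO strain, MS-CKO and MS-WT mice. The KO mice carried a gene trap on both copies of the cluster, miR-183C GT/GT, and the WT mice of that strain were miR-183C+/+, both with Csf1r-EGFP(+).

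A voltage-gated calcium channel opens when the membrane depolarizes and lets calcium into the cell, which couples the action potential to transmitter release, gene expression and excitability. The alpha1 subunit forms the pore and sets the channel type, the intracellular beta subunit binds alpha1 and brings it to the membrane, and the largely extracellular alpha2delta subunit raises the number of channels at the surface and in nerve terminals. In nociceptors N-type channels trigger release in the dorsal horn and the brainstem, and alpha2delta-1, which rises in dorsal root ganglia after nerve injury in rodents, binds the analgesic gabapentin.

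The cluster encodes 3 miRNAs on the minus strand of mouse chromosome 6 (GRCm38). Their mature sequences are shown, from RefSeq (GRCm38.p6), because the seed, bases 2 to 8 in capitals, defines the sites searched for in the channel genes.
miR-183-5p: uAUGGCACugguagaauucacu
miR-96-5p: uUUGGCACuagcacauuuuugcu
miR-182-5p: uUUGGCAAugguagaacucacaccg
These mature sequences lie at chr6:30169711-30169732, chr6:30169506-30169528 and chr6:30165962-30165986. No pair of them shares a full seed, and a 7mer-m8 site is the complement of bases 2 to 8. For miR-183-5p it reads GTGCCAT, for miR-96-5p it reads GTGCCAA, and for miR-182-5p it reads TTGCCAA. An 8mer site has an A after these letters. Only the sense strand of the transcript was searched.

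Of the 10 genes, 6 held at least 1 such match on the sense strand of an annotated 3′ UTR (GENCODE M21), beside 24.1% of 21005 genes with a 3′ UTR. A match is a stretch of letters and not a site shown to be used. The authors reported Cacna2d2 as raised at RNA and protein level in the TG of KO mice. They also listed Cacna2d1 among miR-183C targets in the corneas of SNS-CKO and KO mice. With 8mers alone 4 of the 10 held a match, beside 8.14% of all genes. Cacna1c had 7 matches in a longest 3′ UTR of 6652 bases, Cacnb4 had 5 in 6169 bases, Cacna2d2 had 2 in 1879 bases, Cacnb1 had 2 in 1393 bases, Cacna1b had 1 in 2683 bases and Cacna2d1 had 1 in 3837 bases. These letters were not found in the longest 3′ UTRs of Cacna2d3 (322 bases), Cacna1a (538 bases), Cacnb3 (958 bases) and Cacna1h (1818 bases). The median longest 3′ UTR over all genes was 961 bases, so the genes with a match were those with 3′ UTRs above the median, and Cacna1h was the only one above it without a match.

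**Figure D1:**
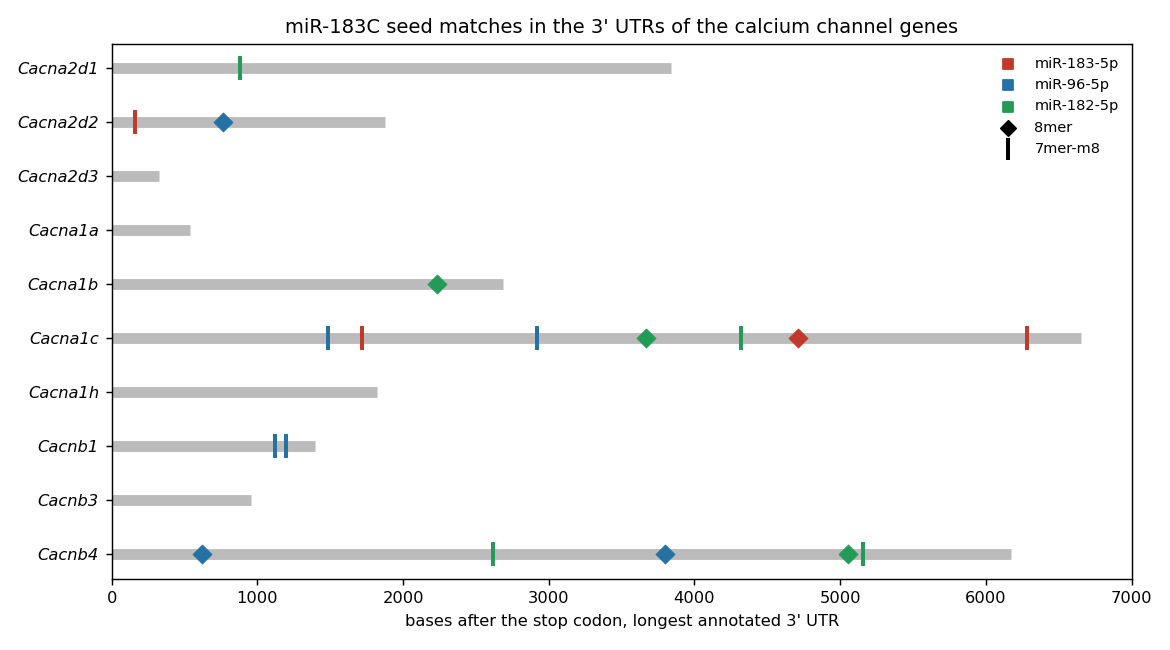
Positions of miR-183C seed matches along the longest annotated 3′ UTR of each of the 10 genes, in bases after the stop codon; grey bars give the length of the 3′ UTR, diamonds 8mers, ticks 7mer-m8 matches, and colour the miRNA. Cacna1c and Cacnb4, with the longest 3′ UTRs, hold 7 and 5 matches, and 4 genes hold none.

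The matches of Cacnb1 and Cacna2d2, which had the smallest p-values in the TG of SNS-CKO mice, of Cacna2d1, the gabapentin target, of Cacna1b, the N-type pore, and the 8mers of Cacnb4 are printed 5′ to 3′ on the strand of the gene, with the match in capitals.
Cacnb1, miR-96-5p, chr11:98001776-98001782: gagagccgattGTGCCAAcgaggactggg
Cacnb1, miR-96-5p, chr11:98001701-98001707: cgccacctcctGTGCCAAtgttgccccac
Cacna2d2, miR-183-5p, chr9:107527628-107527634: cccaaagtaagGTGCCATggtgtttggca
Cacna2d2, miR-96-5p, chr9:107528226-107528233: aatgtcaaaccGTGCCAAAtgctggggggg
Cacna2d1, miR-182-5p, chr5:16371555-16371561: atgaacttggcTTGCCAAgggtcttttgc
Cacna1b, miR-182-5p, chr2:24604329-24604336: ttcatagtgagTTGCCAAAatttgaaatgc
Cacnb4, miR-96-5p, chr2:52433861-52433868: atatattgataGTGCCAAAaaaaatctcag
Cacnb4, miR-96-5p, chr2:52430681-52430688: gaactacctctGTGCCAAAtgtagcctcta
Cacnb4, miR-182-5p, chr2:52429429-52429436: aaagcattttaTTGCCAAAataaatctatg
Coordinates are GRCm38, Cacna2d1 and Cacna2d2 are on the plus strand and the others on the minus strand. Both matches of Cacnb1 lie in the 3′ UTR of 1 annotated transcript only, whereas those of Cacna2d2 are in 5 transcripts and those of Cacnb4 in 4.

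The libraries held 2934793 to 5387042 counts in the TG and 2366126 to 6741290 in the cornea. Levels are given as CPM, the count of a gene per 1e6 counts of its library, and since a transcript gives a tag at its 3′ end only, they are not divided by gene length. In bulk tissue fewer cells of a type and less RNA per cell cannot be told apart. Mirc35hg, the host gene of the cluster, was at 49.3 to 52.6 CPM in SNS-CKO TG and at no more than 3.56 CPM in SNS-WT TG, and Lyz2 was lower in the TG of MS-CKO (0.754 to 2.36 CPM) than of MS-WT mice (2.34 to 7.24 CPM). Krt12, the keratin of the corneal epithelium, was at 20219 CPM or more in each cornea and at no more than 25.1 CPM in each TG, and Scn10a, which encodes Nav1.8, was at 255 to 407 CPM in the TG. Of the column names, those of all SNS and of some MS libraries carry the tag B2, whose meaning no source gives. Lens markers summed to as much as 883 CPM in MS-WT corneas and to no more than 26.9 CPM in the other groups. The values of the MS strain also stand in the table under names of the KO strain for 11 libraries, so MS results rest on 1 of the names.

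In the TG the transcripts of 9 of the 10 subunits were abundant, and 1 was read at few counts. Cacnb4, a beta subunit of P/Q-type channels of the brain, was the highest at 256 ± 29.9 CPM (SD, n = 17 libraries of all groups, as for the next values). Cacna2d1 followed at 225 ± 19.0 CPM, Cacnb3, the beta subunit found with N-type channels, at 182 ± 17.7 CPM, and Cacna1a, the P/Q-type pore, at 175 ± 24.0 CPM. Cacna2d2 was read at 102 ± 22.8 CPM and Cacna1b, the N-type pore, at 98.0 ± 9.11 CPM. Below these came Cacnb1, the beta subunit of skeletal muscle that is also made in neurons, at 54.2 ± 9.98 CPM, Cacna2d3 at 50.6 ± 7.53 CPM and Cacna1c, an L-type pore, at 26.0 ± 6.83 CPM. Cacna1h, a T-type pore known from a set of low-threshold touch neurons, was at 1.59 ± 0.839 CPM, with 1 to 13 counts in a library. Exons of Tpsg1, a gene on the opposite strand, overlap those of Cacna1h, and whether counting lost tags there was not tested.

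The ranges of most neighbours in this order overlapped. Cacna2d1 was above Cacnb3 in all 17 libraries, and Cacnb4 above Cacna2d1 in 16. Cacnb3 was above Cacna1a in 11 of 17, Cacna2d2 above Cacna1b in 8 and Cacnb1 above Cacna2d3 in 9, so those 3 pairs could not be ordered. The ranges of Cacna1b (82.6 to 113 CPM) and Cacnb1 (40.6 to 74.7 CPM) were apart, as were those of Cacna1c (14.1 to 43.6 CPM) and Cacna1h (0.267 to 3.17 CPM). Summed over the 3 alpha2delta genes, TG levels were 364 to 388 CPM as group means, over the 4 alpha1 genes 272 to 334 CPM and over the 3 beta genes 477 to 507 CPM.

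Levels of some subunits moved with the library tag. Within the MS strain, Cacna1a was at 175 to 187 CPM in the 3 TG libraries with the tag and at 135 to 157 CPM in the 7 without it, and the 7 SNS libraries, all with the tag, were at 188 to 210.4 CPM. Cacna2d1 was lower with the tag in MS mice, at 209 to 213 CPM against 226 to 264 CPM. Since all SNS libraries have the tag, strain and tag cannot be told apart when levels of the strains are set side by side, and levels are not tested between strains.

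The same genes were low in the cornea. In SNS-WT mice 9 of 9 tested subunits were higher in the TG than in the cornea at an adjusted p under 0.05 (edgeR quasi-likelihood test, n = 4 against 4), as were 41.3% of all 13196 genes tested, and in MS-WT mice 9 of 9 (n = 5 against 5), as were 40.4% of 13401 genes. The groups did not overlap for any of the 9 in either strain, beside 41.1% and 38.3% of all genes apart and higher in the TG. Cacna1h had too few counts to be tested.

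**Figure D2:**
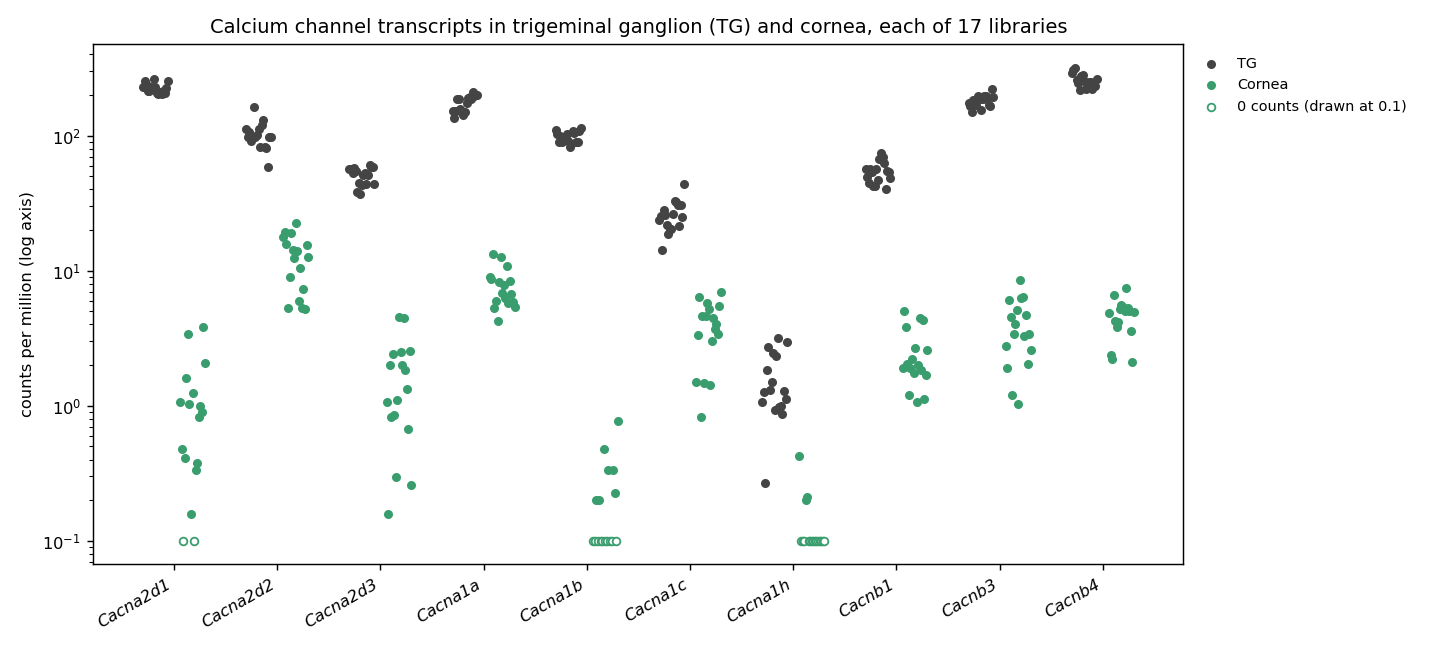
CPM (log axis) of the 10 genes in each of the 17 TG (grey) and 17 cornea (green) libraries, all groups; open circles are libraries with 0 counts, drawn at 0.1. The TG points lie above the cornea points for every gene but Cacna1h, where TG points start at 0.267 CPM and the highest cornea point is 0.426 CPM.

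Cacna1b showed the widest gap. It was at 0.334, 0.225, 0 and 0.776 CPM in the corneas of SNS-WT mice, 5 counts in all, and at 90.6, 90.0, 108 and 113 CPM in their TG, a log2 difference of 7.86 (SE 0.28, adjusted p = 4.2e-18). In MS-WT mice it had 3 counts over 5 cornea libraries and 2053 in the TG, a ratio of 800.0 with a 95% counting interval of 273 to 3882. That interval covers counting error only, not the spread between libraries, and all 3 counts were in MS-WT cornea library 3. Without that library the cornea had 0 counts, and Cacna1b was at least 602-fold higher in the TG with a floor of 3 counts over the remaining corneas. Without SNS-WT cornea library 4, which held 3 of the 5 counts, the log2 difference in SNS-WT mice was 8.57. The highest cornea value of any group, 0.776 CPM, lay far below the lowest TG value, 82.6 CPM, and 10 of the 17 cornea libraries had no count of Cacna1b.

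Cacna2d1 was at 1.94 ± 1.35 CPM in the cornea of SNS-WT mice and at 225 ± 19.7 CPM in their TG (SD, n = 4 each). Its log2 difference was 6.85 (SE 0.19) in SNS-WT and 7.42 (SE 0.30) in MS-WT mice, where it was 8.21 without cornea library 1. Of the alpha2delta genes it had the widest gap, while Cacna2d3 differed by 5.57 (SE 0.30) and 4.47 (SE 0.36, or 5.20 without MS-WT cornea library 4) and Cacna2d2 by 2.98 (SE 0.23) and 2.60 (SE 0.19) on the log2 scale.

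The beta genes differed by 4.25 to 5.83 on the log2 scale in SNS-WT mice and by 4.50 to 5.55 in MS-WT mice. Cacna1a differed by 4.81 (SE 0.13) and 4.08 (SE 0.18). Cacna1c, a pore that smooth muscle and many other cells also use, differed least, by 2.49 (SE 0.27) and 2.31 (SE 0.31), and was at 3.37 to 6.98 CPM in SNS-WT corneas. In SNS-WT mice Cacna1h had 22 TG counts and 0 cornea counts, at least 7.04-fold higher in the TG with a floor of 3 counts over the cornea group.

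In the cornea itself Cacna2d2 was at 12.5 ± 5.52 CPM, Cacna1a at 7.74 ± 2.57 CPM and Cacnb4 at 4.58 ± 1.46 CPM (SD, n = 17), and 7 of the 10 had a count in each of the 17 libraries. Cacna2d2 was above Cacna1a in 10 of the 17, namely in 0 of 3 SNS-CKO, 2 of 4 SNS-WT, 4 of 5 MS-CKO and 4 of 5 MS-WT libraries, so the order of that pair was not the same in every group. All SNS corneas but only some MS corneas carry the tag B2. In the tagged MS corneas Cacna2d2 and Cacna1a were at 5.33 and 5.33 CPM (MS-CKO 4), 9.02 and 6.02 CPM (MS-CKO 5) and 13.9 and 7.86 CPM (MS-WT 5). The parts of strain and tag in this order were not tested. Cacna2d1, second in the TG, was at 1.10 ± 1.10 CPM. The 7 neuronal markers Tubb3, Uchl1, Snap25, Stmn2, Rbfox3, Elavl4 and Prph summed to 0 to 17.3 CPM in cornea libraries and to 9909 to 12008 CPM in the TG. Their mean sums were 11.1 CPM in SNS-CKO, 13.1 in SNS-WT, 4.40 in MS-CKO and 4.86 in MS-WT corneas, with 6 or 7 of the 7 above 0 in each group. The libraries ran from 8.01 to 13.5, 10.9 to 17.3, 0 to 10.3 and 0.830 to 13.6 CPM in that order, so the strains overlapped. These sums were not split by the tag B2, so strain and tag were not told apart in them. The part of the markers in the cornea values of the subunits was not tested.

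Deletion of miR-183C in sensory neurons moved none of the 10 subunits past the adjusted threshold in the TG. Of the 9 tested, 0 passed an adjusted p under 0.05 in edgeR, beside 5 of 12769 genes (0.0392%), and 2 had an unadjusted p under 0.05, beside 6.67% of all genes. DESeq2 also called 0 of the 9. The median log2 change was 0.01 over the 9 subunits and 0.00 over all genes tested, and 2 subunits had groups that did not overlap, beside 7.29% of all genes.

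Cacnb1, which is also the beta subunit of the muscle L-type channel, had the smallest p. It was read in the TG at 74.7, 69.8 and 62.9 CPM in SNS-CKO mice and at 40.6, 54.6, 53.8 and 48.3 CPM in SNS-WT mice. The lowest CKO library stood above the highest WT library. The log2 change was 0.48 (SE 0.13, 95% interval 0.22 to 0.75), with an adjusted p of 0.31 in edgeR, so it was not called. Leaving out any 1 library kept the change between 0.40 and 0.54, and the adjusted p was 0.11 or more under each of 14 alternative settings. With the strain names read the other way, which sets the untagged MS libraries in place of the SNS ones, the log2 change was 0.10 (adjusted p = 0.998). Cacnb1 holds both miR-96-5p matches printed above. Skeletal muscle markers summed to 4.61 to 8.70 CPM in the CKO and 2.85 to 7.30 CPM in the WT libraries, and Cacna1s, the muscle pore, was at no more than 1.14 CPM in any TG library.

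Cacna2d2, the alpha2delta-2 gene whose loss causes ducky epilepsy in mice, was at 121, 130.1 and 82.7 CPM in SNS-CKO mice and at 81.2, 58.2, 97.2 and 97.6 CPM in SNS-WT mice. The CKO libraries 1 and 2 were above all WT libraries, and CKO library 3 lay among them. The log2 change was 0.42 (SE 0.15, 95% interval 0.12 to 0.72), with an adjusted p of 0.57 in edgeR and of 0.998 in DESeq2, and 0.093 or more under the alternatives. It was 0.28 without WT library 2 and 0.29 without CKO library 2. With the strain names read the other way, that is in the untagged MS libraries, it was -0.16. An antisense gene overlaps Cacna2d2, as genes on the opposite strand overlap Cacna1a, Cacna1h, Cacnb1 and Cacnb4, and no source states whether counting used the strand.

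Cacna2d1 did not move by more than the spread between libraries. Its values were 205, 209 and 203 CPM in SNS-CKO and 213, 208, 226 and 252 CPM in SNS-WT mice, a log2 change of -0.13 (SE 0.09, 95% interval -0.31 to 0.05, adjusted p = 0.84). The groups met at CKO library 2 and WT library 2, the highest and the lowest of their group. Cacna2d3, an alpha2delta gene tied to heat nociception in flies and mice, was at 52.7, 43.7 and 51.2 CPM against 60.5, 58.2, 58.3 and 43.6 CPM, a log2 change of -0.17 (SE 0.14, adjusted p = 0.87). The groups overlapped through WT library 4.

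Of the pore genes, Cacna1a was lower in every SNS-CKO library, at 191, 192 and 188 CPM, than in any SNS-WT library, at 210.4, 197, 199.8 and 201 CPM. The gap was small, a log2 change of -0.09 (SE 0.08, 95% interval -0.26 to 0.08) with an adjusted p of 0.89. Cacna1b differed by -0.01 (SE 0.11) and Cacna1c by 0.08 (SE 0.19) on the log2 scale, with overlapping groups. Cacna1h, not tested in this fit, was at 0.976 to 3.17 CPM in SNS-CKO and at 0.877 to 2.97 CPM in SNS-WT mice. The other beta genes differed by 0.04 (SE 0.10, Cacnb3) and 0.01 (SE 0.09, Cacnb4). Over the 9 tested subunits the 95% intervals ran from -0.45 to 0.75 on the log2 scale.

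**Figure D3:**
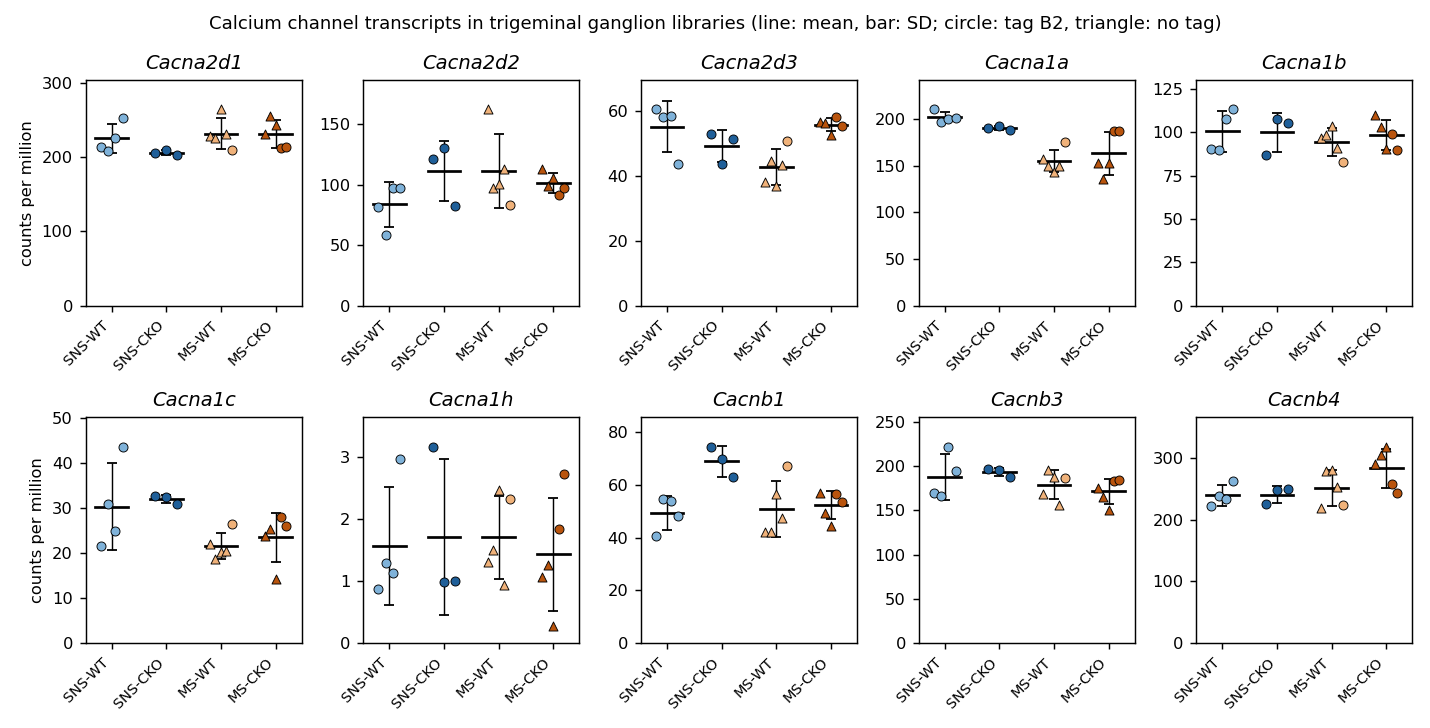
CPM of the 10 genes in each TG library by group, with the group mean (line) and SD (bar); circles are libraries with the tag B2 and triangles those without it, and each panel has its own axis from 0. The 3 SNS-CKO points of Cacnb1, 62.9 to 74.7 CPM, lie above the 4 SNS-WT points, and the 5 MS-CKO points of Cacna2d3, 52.6 to 58.1 CPM, above the 5 MS-WT points.

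Cell type markers were read beside these values. The 7 neuronal markers summed to 11315 to 11508 CPM in SNS-CKO and to 9909 to 11455 CPM in SNS-WT TG, the 6 nociceptor markers to 1534 to 1624 against 1591 to 1942 CPM, and the 6 markers of large-diameter neurons to 11144 to 12530 against 12624 to 13820 CPM. The large-diameter sum thus did not overlap between the genotypes and was lower in SNS-CKO mice, as was Cacna1a, while 7.29% of all single genes did not overlap in this comparison. Most of that sum came from Nefm and Nefh, with means of 7749 and 3933 CPM over the 17 TG libraries, so it says little of the other markers of the list. The part of the sum in the subunit values was not tested. All markers of the 3 lists were above 0 in both groups.

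In the TG of mice lacking miR-183C in myeloid cells, 0 of 9 tested subunits passed the adjusted threshold, as did 0 of all 12480 genes (0%). By unadjusted p under 0.05 it was 1 subunit in edgeR, beside 372 genes or 2.98%, and DESeq2 called 0 subunits after adjustment. The same subunit was the only member whose groups did not overlap, beside 0.513% of all genes. The median log2 change was 0.05 over the 9 subunits and 0.00 over all genes.

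That subunit was Cacna2d3. It was read at 56.6, 56.3, 52.6, 58.1 and 55.2 CPM in MS-CKO and at 38.0, 44.4, 36.7, 43.4 and 50.8 CPM in MS-WT mice. The highest MS-WT value belongs to the only WT library with the tag B2. The log2 change was 0.38 (SE 0.12, 95% interval 0.13 to 0.63), with an adjusted p of 0.999 in edgeR. With the tag as a term it was 0.36, among libraries without the tag 0.45 (SE 0.15), and among the 3 with it, 2 CKO against 1 WT, 0.14 (SE 0.21). The lone WT library is there assumed to vary like the others. With the strain names read the other way, which sets all tagged libraries, the SNS ones among them, in place of these, it was -0.06. No miR-183C match was found in the annotated 3′ UTR of Cacna2d3.

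The other subunits overlapped between MS-CKO and MS-WT. Cacna2d2 was at 162, 97.2, 101, 113 and 82.9 CPM in MS-WT and at 113, 98.5, 106, 91.6 and 96.8 CPM in MS-CKO mice. WT library 1 alone was above all others, and the log2 change of -0.15 (SE 0.14) was 0.03 without it. Cacna2d1 differed by -0.01 (SE 0.09), Cacnb4 by 0.17 (SE 0.10), Cacnb1 by 0.02 (SE 0.14) and Cacnb3 by -0.07 (SE 0.09) on the log2 scale. The pore genes differed by 0.05 to 0.11, and the intervals of all 9 ran from -0.43 to 0.63.

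**Figure D4:**
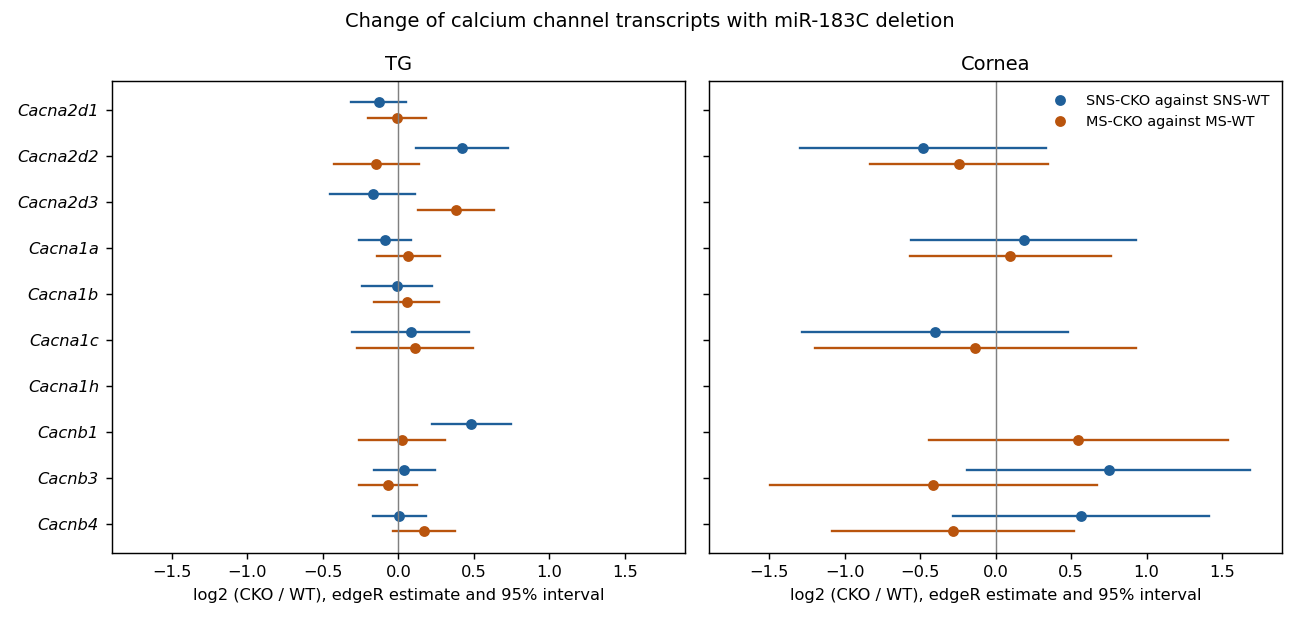
Log2 change of each tested gene with deletion of miR-183C (edgeR estimate, line the 95% interval) in the TG (left) and cornea (right) for SNS-CKO against SNS-WT (blue) and MS-CKO against MS-WT (orange); genes with too few counts have no point. In the TG the intervals of Cacnb1 (0.22 to 0.75) and Cacna2d2 (0.12 to 0.72) in the SNS strain and of Cacna2d3 (0.13 to 0.63) in the MS strain lie above 0, before adjustment, and every cornea interval crosses 0.

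Whether a subunit responded differently in the strains was tested as the interaction of strain and genotype. In the TG 0 of 10 subunits passed an adjusted p under 0.05, beside 1 of 13728 genes (0.00728%), and 3 had an unadjusted p under 0.05, beside 4.17%. These were Cacna2d2, whose change was larger in the SNS strain by 0.56 (SE 0.23), Cacna2d3, whose change was larger in the MS strain, a difference of -0.55 (SE 0.19), and Cacnb1, with 0.46 (SE 0.20), each with an adjusted p of 0.998 in edgeR. DESeq2 called 0 subunits as well. With the tag as a term the 3 differences were 0.49, -0.53 and 0.50.

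Set beside the sites, the 6 tested genes with a match had log2 changes of -0.13 to 0.48 in SNS-CKO TG with a median of 0.04, and the 3 tested genes without one had -0.17 to 0.04 with a median of -0.09. In MS-CKO TG the medians were 0.04 with and 0.07 without a match. Cacna1c and Cacnb4, with 7 and 5 matches, differed by 0.08 and 0.01 in the SNS strain, which is less than their SE.

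In the cornea 5 subunits passed the filter on low counts for the SNS strain and 6 for the MS strain. None passed the adjusted threshold, as in 0 of 11463 and 0 of 11830 genes (0% in both strains). None of those tested had an unadjusted p under 0.05, beside 6.24% and 3.56% of all genes. None of those tested had groups that did not overlap, beside 6.31% and 0.634%. Cacna2d1, with too few counts to be tested, had groups that did not overlap in the SNS strain. It was at 0.333, 0.375 and 0.821 CPM in SNS-CKO corneas (1, 1 and 4 counts). In SNS-WT corneas it was at 1.003, 0.8996, 3.804 and 2.07 CPM (3, 4, 9 and 8 counts). With no filter on low counts its log2 change was -1.69 (adjusted p = 0.82 in edgeR). For the difference between strains 0 of 7 subunits passed either threshold, beside 0% after adjustment and 2.48% before it, in 13031 genes. DESeq2 called 0 subunits in these 3 comparisons.

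The depth did not allow small changes of the subunits to be seen in the cornea. The 95% intervals over the tested subunits ran from -1.29 to 1.69 in the SNS strain and from -1.50 to 1.54 in the MS strain on the log2 scale. The smallest p in the SNS strain was that of Cacnb3, at 6.33, 6.38 and 3.29 CPM in SNS-CKO and 4.68, 2.02, 3.38 and 2.59 CPM in SNS-WT corneas, with a log2 change of 0.75 (SE 0.45, adjusted p = 0.80). CKO library 3 lay among the WT libraries. In the MS strain it was that of Cacnb1, at 1.20 to 5.06 CPM in MS-CKO and at 1.07 to 2.70 CPM in MS-WT corneas (log2 change 0.55, SE 0.47, adjusted p = 0.999). Cacna2d2 was at 5.34 to 10.51 CPM in SNS-CKO and 5.17 to 15.6 CPM in SNS-WT, and at 5.33 to 19.5 CPM in MS-CKO and at 12.4 to 22.6 CPM in MS-WT. MS-CKO libraries 4 and 5, which carry the tag B2, were at 5.33 and 9.02 CPM, and the untagged MS-CKO libraries at 15.9 to 19.5 CPM. The tagged MS-WT library was at 13.9 CPM. The log2 change in the MS strain was -0.24 with all libraries and 0.07 with only untagged ones.

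Of the 16 other genes for channel subunits, the gamma subunits Cacng7, Cacng2 and Cacng5 were the highest in the TG at 101 ± 27.8, 89.7 ± 25.8 and 40.8 ± 6.49 CPM, followed by Cacna1d, an L-type pore, at 15.4 ± 4.49 CPM (SD, n = 17). Gamma-2 and its relatives are better known as partners of AMPA receptors. None of the tested genes of this list passed the adjusted threshold with genotype in either tissue or strain. In SNS-CKO TG 2 of 7 tested had an unadjusted p under 0.05, beside 6.67% of all genes, both lower, and the 3 smallest were Cacng7 (log2 change -0.35, SE 0.11, adjusted p = 0.48), Cacng2 (-0.25, SE 0.12, adjusted p = 0.73) and Cacng5 (-0.28, SE 0.14, adjusted p = 0.76). The median of the 7 was -0.25, beside 0.00 over all genes. In MS-CKO TG 0 of 6 did, and the smallest p-values were those of Cacnb2 (0.77, SE 0.42), Cacng5 (-0.26, SE 0.15) and Cacng7 (-0.22, SE 0.20). The strain differences with the smallest p-values were those of Cacna1e (-1.08, SE 0.66), Cacnb2 (-0.93, SE 0.62) and Cacng2 (-0.21, SE 0.23), and each of these MS and strain values had an adjusted p of 0.998 or more. In the cornea they were Cacng7, Cacna1g and Cacna1d for the SNS strain, Cacna1g, Cacng7 and Cacnb2 for the MS strain and Cacng7, Cacna1g and Cacna2d4 for the strain difference, with adjusted p-values of 0.80 or more. Between tissues 5 of 6 in SNS-WT and 5 of 7 in MS-WT mice were higher in the TG, beside 41.3% and 40.4% of all genes. Cacng2, stargazin, differed by 10.01 (SE 0.33) and 8.52 (SE 0.38), Cacng5 by 7.81 (SE 0.37) and 8.12 (SE 0.38), Cacng7 by 4.58 (SE 0.19) and 4.21 (SE 0.28) and Cacna1d by 1.58 (SE 0.35) and 1.65 (SE 0.39) on the log2 scale. Cacnb2 was called in SNS-WT mice alone (1.28, SE 0.46), Cacna1e was tested and called in MS-WT mice alone (4.70, SE 0.74), and Cacna1g, a T-type pore, was lower there, with log2 differences of -2.12 (SE 0.42) and -2.23 (SE 0.62).

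Of 30 genes for proteins that bind or regulate the channels, 25 were tested in the TG and none passed the adjusted threshold with genotype in either strain. In SNS-CKO TG the smallest p-values were those of Rims2, a scaffold that ties channels to vesicle release sites (log2 change -0.34, SE 0.12, adjusted p = 0.57), the kinase subunit Camk2b (0.24, SE 0.11, adjusted p = 0.73) and Lrp1, a receptor that helps carry alpha2delta to the surface (0.25, SE 0.12, adjusted p = 0.73). In MS-CKO TG they were those of the vesicle priming gene Unc13a (0.37, SE 0.15), Thbs4 (-0.59, SE 0.30) and Thbs1 (-0.60, SE 0.31), each with an adjusted p of 0.999, of which the thrombospondins are ligands of alpha2delta-1. The smallest for the strain difference were those of Rims2, Unc13a and Lrp1, and in the cornea those of Gnao1, Calm3 and Dpysl2 for the SNS strain, of Thbs1, Gabbr1 and Gnb1 for the MS strain and of Stac3, Calm3 and Dpysl2 for the strain difference, with adjusted p-values of 0.79 or more. Of the 25, 21 were higher in the TG than in the cornea in each strain, beside 41.3% of all genes in SNS-WT and 40.4% in MS-WT mice. Thbs1, Thbs2 and Lrp1 were lower there than in the cornea, with log2 differences of -3.12, -1.11 and -1.09 in SNS-WT and -2.46, -1.49 and -0.76 in MS-WT mice.

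In the sorted myeloid cells, read as 1 pool a group and so without a test, 65 of the 80 values of the 10 subunits were 0. Cacna2d1, Cacna2d2, Cacna1c and Cacna1h had no count in any of the 8 pools, which with a floor of 3 counts allows up to 0.278 to 1.33 CPM by counting error alone. A 0 in these pools does not bound expression, since Ptprc, which all leukocytes express, was also at 0 in the CRMCs of KO mice and at 46.9 to 379 CPM in the other CRMC pools. No subunit was above 0 in more than 3 pools. Cacna1a was at 571 CPM (95% counting interval 540 to 603) in the CRMCs of WT mice of the KO strain, at 40.6 CPM (34.7 to 47.1) in those of KO mice and at 0 in both MS-strain CRMC pools. In the same WT and KO pools Krt12 was at 4600 and 22612 CPM, the neuronal Tubb3 at 0 and 73.3 CPM and Ptprc at 46.9 and 0 CPM, and their part in the Cacna1a values was not tested. Cacnb3 was above 0 in 3 of 4 spleen pools, at 8.37 to 25.8 CPM, and in no CRMC pool. The CRMC pools held counts for 1650 to 6455 genes and the spleen pools for 7323 to 10559, against 15047 to 16748 in the cornea libraries, and the pool with the highest Cacna1a was the one with 1650. These intervals and floors cover counting error only, since reads were not collapsed to molecules.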

How the data were processed

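RNA was measured in 34 TG and cornea libraries and 8 sorted pools. The authors made libraries with a QuantSeq 3′ mRNA kit, used STAR for alignment against mm10 and HTSeq for tallying reads by gene, with versions and annotation not given in the sources used here. Deposited values are whole-number counts, not normalized. Groups came from the labels. The columns of the KO pools read CKO without MS, and were taken as KO since every other null pool has MS in its name. In TG and cornea the column names give the strain only by a reading in which NACC marks SNS. In the alternative the 7 libraries of a tissue without the tag B2 are SNS and the other 10 MS. That alternative counts the SNS-CKO TG libraries, where Mirc35hg was high, as MS, and its SNS values are those of untagged MS libraries. Of the columns, 1 was not used, and 11 named as KO-strain tissue equal MS columns value for value (1 named TG KO equals cornea MS-WT 4, and 1 named as a TG control of that strain equals MS-CKO 3), so the KO strain was not analysed here in TG and cornea.

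CPM are counts divided by the library total. Each CKO was compared with its WT by edgeR 4.0.16 (R 4.3.3, limma 3.58.1; TMM, filterByExpr defaults, quasi-likelihood F test, Benjamini-Hochberg over all genes tested, threshold 0.05), strains by an interaction and tissues within WT mice. The SE is the size of the log2 change over the square root of F. The fit was also run on simulated counts with the same dispersion for all genes, a simpler setting than these data, and no result here rests on that run. Alternatives were DESeq2 1.42.0, RLE factors, no filter, all groups in 1 fit, the replicate number as a block, leaving out each library, the tag B2 and an unadjusted threshold; library totals in place of TMM and the tissues compared in SNS-CKO mice were added after seeing the data. Labels number the mice within each group, and samples that share a number did not all deviate together (correlations of -0.0843 to 0.18). Sites were 7mer-m8 and 8mer matches in 3′ UTRs of protein-coding transcripts with a stop codon (GENCODE M21, mm10). The 10 members and the gene lists were chosen with earlier results of these data known. All members are named, per library where the unadjusted p in a contrast was under 0.05 or the groups did not overlap, and further ones where a sentence turns on them; of the other lists, genes past the threshold (a selection of the 24 partners between tissues) or the 3 with the smallest p, and the 4 other subunits highest in the TG.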

Additional observations from a re-analysis of the deposited data

Results flagged for a closer look

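Of 60 sets of 4 or 5 libraries (10 genes in 6 groups), 3 held a library far from the rest of its group by Dixon's ratio, where chance gives about 1 in 20 for measured values. In the TG of SNS-WT mice Cacna2d3 was at 43.6 CPM in library 4 and at 58.2 to 60.5 CPM in the other 3. In the cornea of MS-WT mice Cacna1b was at 0.477 CPM in library 3, which is 3 counts, and Cacna1h at 0.212 CPM in library 1, which is 1 count, with 0 in the other 4 libraries of each. Any count beside 4 libraries at 0 stands apart in this way, and a set all at 0 cannot, so that rate does not apply to the sets of Cacna1b and Cacna1h.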

How the results depend on the processing

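None of 820 alternative values of single subunits changed a call, and 767 kept their direction too. The count of subunits past the threshold stayed at 0 in the 6 genotype comparisons and 9 of 9 between tissues (10 with no filter on low counts), but with an unadjusted p under 0.05 it was 2 for SNS-CKO TG (1 in DESeq2 or without CKO library 2), 1 for MS-CKO TG (2 with the tag as a term, with only untagged libraries, without CKO library 5 or with the names read the other way, 0 with only tagged libraries), 3 for the TG strain difference and 0 in the cornea (1 for SNS without CKO library 3). With the replicate block it was 0 and 9 as before, with log2 changes of 0.48 for Cacnb1 and 0.51 for Cacna2d2 in SNS-CKO TG, and Cacna1b turned to 0.056. With the strain names read the other way the TG changes turned to 0.0405 (Cacna2d1), -0.16 (Cacna2d2), 0.45 (Cacna2d3), 0.0627 (Cacna1b) and -0.11 (Cacnb3) for SNS, and to 0.33 (Cacna2d2), -0.0619 (Cacna2d3), -0.0597 (Cacna1a) and 0.0102 (Cacnb3) for MS. In the cornea they turned to 0.0729 (Cacna2d2) and -0.56 (Cacnb4) for SNS and 0.0155 (Cacnb3) and 0.42 (Cacnb4) for MS. With only tagged libraries the MS changes turned to 0.0038 (Cacna2d1), 0.16 (Cacna2d2) and -0.30 (Cacnb1) in the TG and -0.45 (Cacna1a) and 1.03 (Cacna1c) in the cornea. With only untagged ones they turned to 0.0405 (Cacna2d1) and -0.0184 (Cacna1a) in the TG and 0.0729 (Cacna2d2) and 0.0589 (Cacnb3) in the cornea. With the tag as a term they turned to 0.0297 (Cacna2d1) and -0.0193 (Cacnb1) in the TG and 0.0501 (Cacna1c) in the cornea, and the strain difference of Cacna1c to 0.0302. With no filter Cacnb4 in SNS-CKO TG was -0.0056. Leaving out 1 library turned changes near 0, with ranges in SNS-CKO TG of -0.0693 to 0.0861 (Cacna1b), -0.0517 to 0.30 (Cacna1c), -0.0202 to 0.14 (Cacnb3) and -0.0319 to 0.0555 (Cacnb4), in MS-CKO TG of -0.0475 to 0.0415 (Cacna2d1), -0.23 to 0.0325 (Cacna2d2) and -0.033 to 0.14 (Cacnb1), and in the cornea of -0.14 to 0.38 (Cacna1a, SNS), -0.11 to 0.34 (Cacna1a, MS) and -0.48 to 0.0758 (Cacna1c, MS). Between tissues, leaving out 1 library moved 4 differences by over 1.5 times, with Cacna1b in MS-WT mice at 8.81 to 11.66, where the upper value is fitted against 0 cornea counts and is no bound. The cause of these turns was not tested. Over all genes, calls in SNS-CKO TG were 5, but 33 with no filter, 8 with the replicate block, 3 with all groups in 1 fit, 2 to 11 leaving out 1 library and 0 with the names read the other way. In MS-CKO TG they were 0, but 11 with no filter, 95 with only tagged libraries and 1 with the names read the other way. For the TG strain difference they were 1, but 18 with no filter, 3 with the tag as a term and 4 in DESeq2. In the cornea they were 0 in each comparison, but 37, 27 and 16 with no filter for SNS, MS and the strain difference, up to 2 for SNS leaving out 1 library, 1 for SNS with the block and 4 for MS with only tagged libraries. Same-numbered libraries did not correlate best with each other in every case. With 8mers only 4 of the 10 genes held a site, and with the longest 3′ UTR of each gene 6. The number of libraries, and in the cornea counts of a few per library, limit what could be seen.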
